A study of Mus musculus with 6 samples.

Results

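Glypicans and syndecans are the 2 families of heparan sulfate proteoglycans held at the cell surface. The 10 mouse genes of the 2 families, Gpc1 to Gpc6 and Sdc1 to Sdc4, were taken by gene symbol from a table of 16874 genes, and 9 of them had a row: 5 of 6 glypicans and 4 of 4 syndecans. Gpc5 is not analysed here. Of the 9, 8 passed a minimum mean of 0.5 FPKM over the 6 libraries and were tested (FPKM, fragments per kilobase of transcript and per unit of depth). Gpc3 lay under it and is described without a test.

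Both families carry long sugar chains of heparan sulfate on a core protein. Syndecans cross the membrane and end in a short cytoplasmic tail that binds scaffold proteins and the cytoskeleton, whereas glypicans hang from a lipid (GPI) anchor on the outer face. The sulfate pattern of the chains decides which growth factors, morphogens and matrix proteins they hold, among them FGFs, WNTs, Hedgehogs, chemokines and fibronectin. Both kinds can be cut from the surface, and fibroblasts are known to use syndecans in adhesion to fibronectin and glypicans in handling WNT and Hedgehog proteins.

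The libraries were made from fibroblasts (cells that make and hold connective tissue) grown in culture from the colon of C57BL/6 mice 12 weeks old. One group held 3 libraries labelled Prkcz-/-, the genotype that lacks the atypical protein kinase C zeta, and the other held 3 libraries labelled WT. Neither group was treated, and cells were harvested at 24 h in culture when about 80% confluent. The labels give no allele, and do not say whether the 3 libraries of a group are separate mice, cultures or aliquots, so the p-values below rest on a spread that could be technical only. Guides against Sox2 and scrambled guides appear in the series' design text but not in these libraries' labels. Sox2 measured 20.2, 21.2 and 21.3 FPKM in the libraries labelled Prkcz-/-, against 0.475, 0.0831 and 0.851 FPKM in WT. What lies behind that difference was not tested. All comparisons below address which of these genes differ between the 2 labelled groups.

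The targeted gene did not follow its label. Prkcz measured 1.35, 1.32 and 1.17 FPKM in the libraries labelled Prkcz-/-, against 0.0433, 0.144 and 0.202 FPKM in WT (log2 difference 1.51, SE 0.148, limma adjusted p = 4.65e-05). Prkcz passed the 0.5 FPKM minimum only through the libraries labelled Prkcz-/-. A whole-gene value cannot show whether a deleted exon was read. Every direction below is therefore that of the libraries labelled Prkcz-/- against those labelled WT. Depth, estimated from the steps of low values, was roughly 14700000 to 16600000 reads in the libraries labelled Prkcz-/- and 14900000 to 16300000 reads in WT. The 8 fibroblast markers summed to 6782 to 7068 FPKM in the libraries labelled Prkcz-/- and 5328 to 5613 FPKM in WT, carried mostly by collagen genes and Vim. Of these markers 4 rose (Col1a1, Pdgfra, Thy1 and Vim) and 4 fell (Col1a2, Col3a1, Dcn and Lum). Dcn averaged 5.34 FPKM in the libraries labelled Prkcz-/- and 49.1 FPKM in WT, and Lum was near the floor in the libraries labelled Prkcz-/-, at 0.0921 FPKM, against 3.39 FPKM in WT. Of 4 mesothelial markers 2 had a row, and they went opposite ways. Msln averaged 0.131 FPKM in libraries labelled Prkcz-/- and 5.44 FPKM in WT. The gene Wt1, near the floor, averaged 0.041 FPKM in libraries labelled Prkcz-/- and 0 FPKM in WT. Their part in the results below was not tested. In bulk RNA, fewer cells of a type and less RNA per cell cannot be told apart.

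Of the 8 tested members, 7 were higher in the libraries labelled Prkcz-/- and 0 were lower (limma, Benjamini-Hochberg adjusted p under 0.05 over 12130 genes). Over all genes tested, 31.5% were higher and 37.2% lower. The groups did not overlap for these 7 members, all higher, a pattern seen in 33.3% of all genes tested (72.7% in either direction). The median log2 difference was 1.04 over the 4 syndecans, 0.31 over the 4 tested glypicans and -0.04 over all genes tested. With a log2 difference of at least 1 as well, 3 members passed, all of them syndecans (Sdc2, Sdc3 and Sdc4), against 7.29% of all genes. The exact permutation test, two-sided, can go no lower than 0.1 with 3 libraries against 3, and it gave that value for each of the 7.

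**Figure D1:**
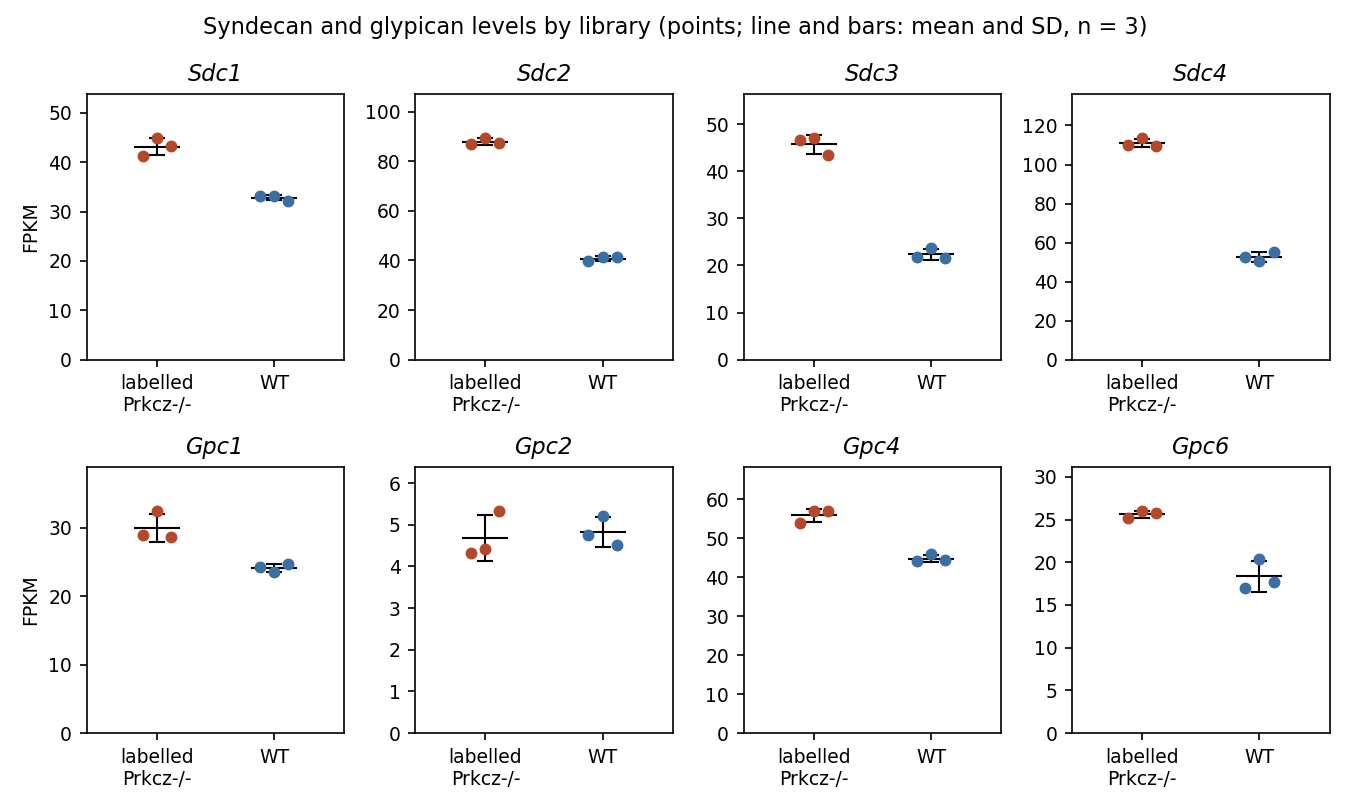
FPKM of the 4 syndecans and the 4 tested glypicans in each library (points, y axis from 0), with the mean and SD of each group (n = 3), libraries labelled Prkcz-/- on the left of each panel. The groups stand apart in every panel except that of Gpc2, where 4.31 to 5.32 FPKM faces 4.52 to 5.21 FPKM.

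Sdc4, the syndecan of focal adhesions, was the most abundant member in both groups. It measured 109.95, 113.7 and 109.7 FPKM in the libraries labelled Prkcz-/-, against 52.4, 50.3 and 55.0 FPKM in WT libraries. The groups did not overlap, and the lowest library labelled Prkcz-/- was 1.99 times the highest WT value. The log2 difference was 1.07 (SE 0.0403, limma adjusted p = 2.35e-07).

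Sdc2, long known as the syndecan of fibroblasts and other mesenchymal cells, had the largest difference of the 8 tested members. It measured 86.9, 89.4 and 87.2 FPKM in the libraries labelled Prkcz-/-, against 39.7, 41.3 and 41.2 FPKM in WT libraries. The spread within a group was small, at a coefficient of variation of 1.55% in the libraries labelled Prkcz-/- and 2.15% in WT. The log2 difference was 1.10 (SE 0.0327, limma adjusted p = 6.73e-08), above that of 93.1% of the genes tested. By root mean square distance in log2(FPKM + 0.5) over the 6 libraries, the genes nearest to Sdc2 were Rhob (0.0974), Slc6a6 (0.163) and Prrc2c (0.166). They are a small GTPase gene, a taurine transporter gene and a gene of an RNA-associated protein.

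Sdc3, described first in nerve and muscle cells, stood at a lower level and moved by a similar amount. It measured 46.6, 47.1 and 43.5 FPKM in the libraries labelled Prkcz-/-, against 21.8, 23.7 and 21.6 FPKM in WT libraries. The merged exons of Sdc3 share 415 bases with Gm26716 and 48 with Gm12970, both on the opposite strand. Neither had a row, so whether reads are shared could not be checked. The groups did not overlap for Sdc3, and its log2 difference was 1.01 (SE 0.0506, limma adjusted p = 1.13e-06). The summed level of 4 neuron markers moved the same way, at 55.0 to 57.5 FPKM in the libraries labelled Prkcz-/- and 22.9 to 26.6 FPKM in WT. Uchl1 (20.4 FPKM labelled Prkcz-/-, 6.81 FPKM WT) and Tubb3 (35.4 FPKM labelled Prkcz-/-, 17.6 FPKM WT) made up nearly all of that sum. The neuron-restricted genes of the list were near 0: Elavl4 averaged 0.0649 FPKM in the libraries labelled Prkcz-/- and 0.281 FPKM in WT, and Snap25, at 0 in every library labelled Prkcz-/-, averaged 0.0109 FPKM in WT.

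Sdc1, which in the gut marks epithelial cells and plasma cells (CD138), differed least among the syndecans. It measured 41.3, 44.9 and 43.3 FPKM in the libraries labelled Prkcz-/-, against 33.2, 33.1 and 32.2 FPKM in WT libraries. All 3 libraries labelled Prkcz-/- were above all 3 WT libraries, with a log2 difference of 0.39 (SE 0.0409, limma adjusted p = 6.75e-05). Defining markers of epithelium and plasma cells were at or near 0. The 8 epithelial markers summed to 1.33 to 1.63 FPKM in the libraries labelled Prkcz-/- and 0.494 to 0.774 FPKM in WT, and Epcam averaged 0.105 FPKM in the libraries labelled Prkcz-/- and 0.230 FPKM in WT. Cldn7 averaged 0.932 FPKM in the libraries labelled Prkcz-/- and 0.0264 FPKM in WT, and the others of the list were under 1 FPKM in each library. The 4 plasma and B cell markers with a row summed to 0.0488 to 0.294 FPKM in the libraries labelled Prkcz-/- and 0.0501 to 0.19 FPKM in WT, with Jchain at 0 in each library labelled Prkcz-/-.

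Sdc1 made up a smaller share of the syndecan sum in the libraries labelled Prkcz-/-. The 4 genes summed to 285, 295 and 284 FPKM in the libraries labelled Prkcz-/-, against 147, 148 and 150.02 FPKM in WT libraries, a ratio of means of 1.94. Sdc1 held 15.0 ± 0.426% of this sum in the libraries labelled Prkcz-/- and 22.1 ± 0.577% in WT (SD, n = 3 each). Sdc4 held 38.6 ± 0.0749% in the libraries labelled Prkcz-/- and 35.4 ± 1.39% in WT, and Sdc2 held 30.5 ± 0.223% in the libraries labelled Prkcz-/- and 27.4 ± 0.405% in WT. Within each library, Sdc2 stood at 2.10, 1.99 and 2.01 times Sdc1 in the libraries labelled Prkcz-/- and at 1.198, 1.25 and 1.28 times Sdc1 in WT. The ratios of Sdc3 and Sdc4 to Sdc1 also did not overlap between the groups, at means of 1.06 and 2.57 in the libraries labelled Prkcz-/- and of 0.682 and 1.604 in WT. The ratio of Sdc4 to Sdc2 did overlap, at 1.26 ± 0.00681 in the libraries labelled Prkcz-/- and 1.29 ± 0.0627 in WT (SD, n = 3 each, exact permutation p = 0.5). These were among 7 ratios chosen after the values were seen. The exact two-sided permutation p was 0.1 for each ratio to Sdc1, the smallest possible, and 0.14 when adjusted over the 7.

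**Figure D2:**
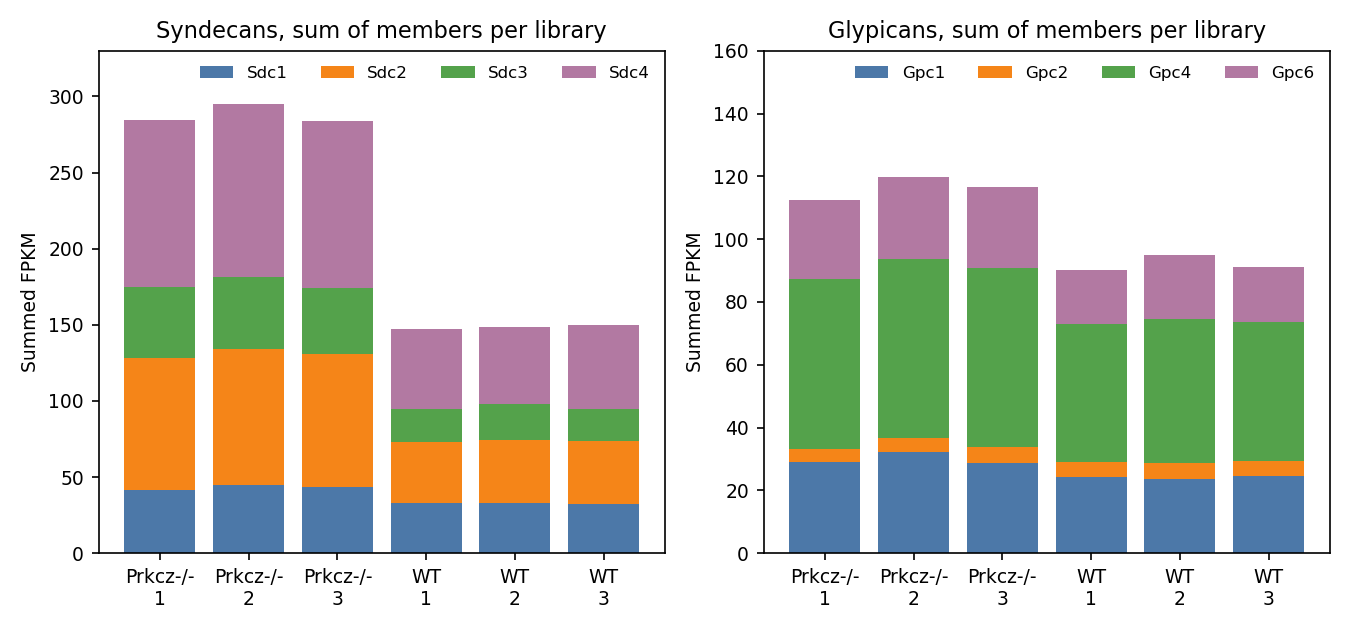
Summed FPKM of the syndecans (left) and of the 4 tested glypicans (right) in each library, stacked by gene, libraries labelled Prkcz-/- first. The syndecan bars reach 284 to 295 FPKM in the libraries labelled Prkcz-/- and 147 to 150.02 FPKM in WT, and the glypican bars differ less.

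The 250 bases before the RefSeq start (GRCm38.p6) of 3 syndecans that rose are printed 5′ to 3′ on the gene's strand, since these genes moved the same way. An entry was matched for 7 of the 10 members, and none for Sdc2, Gpc1 and Gpc6, which also rose. Capitals mark matches, on either strand, to any of 5 motifs. These were the GC box, GGGCGG, the TATA box, spelled here as TATAA, the CCAAT box, which is its own spelling, the motif of the AP-1 factors, TGANTCA, where N is any base, and the motif of the SOX factors, spelled AACAAT. The Sdc1 stretch is chr12:8771146-8771395 (plus strand), that of Sdc3 chr4:130792287-130792536 (plus strand) and that of Sdc4 chr2:164443189-164443438 (minus strand). RefSeq starts can differ from those of the GENCODE M21 annotation. The Sdc4 stretch lies inside the GENCODE gene (164424247 to 164443887), and that of Sdc1 runs across its GENCODE start (8771323).
Sdc1: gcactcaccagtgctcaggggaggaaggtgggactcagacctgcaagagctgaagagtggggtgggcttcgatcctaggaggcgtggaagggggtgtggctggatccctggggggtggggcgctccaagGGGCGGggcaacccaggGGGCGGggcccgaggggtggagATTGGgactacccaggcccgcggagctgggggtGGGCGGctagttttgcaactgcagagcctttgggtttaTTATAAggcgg
Sdc3: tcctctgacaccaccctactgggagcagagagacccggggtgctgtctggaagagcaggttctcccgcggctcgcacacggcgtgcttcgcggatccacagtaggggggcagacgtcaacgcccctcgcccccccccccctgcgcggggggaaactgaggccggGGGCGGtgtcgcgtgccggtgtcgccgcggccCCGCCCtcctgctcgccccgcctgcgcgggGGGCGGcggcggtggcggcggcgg
Sdc4: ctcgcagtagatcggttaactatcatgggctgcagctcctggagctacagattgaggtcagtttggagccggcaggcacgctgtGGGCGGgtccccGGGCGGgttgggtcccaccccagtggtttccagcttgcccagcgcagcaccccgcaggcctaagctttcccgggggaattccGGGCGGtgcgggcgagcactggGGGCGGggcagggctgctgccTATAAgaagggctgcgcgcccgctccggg

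Each of the 3 stretches held at least 3 GC boxes: 3 for Sdc1, 3 for Sdc3 and 4 for Sdc4. At least 1 GC box was present in 32.7% of 32851 stretches of the same length, and at least 3 in 8.47%. Those shares are not matched for base content: G and C made up 66.0% of the Sdc1 stretch, 76.4% of Sdc3 and 68.0% of Sdc4. The median over all stretches was 52.4%. Gpc4, which also rose and is printed below, held 1 GC box. Gpc2, the tested member that did not pass, also held 3 GC boxes, with 2 CCAAT boxes. Gpc3, near the floor and not tested, held 3 GC boxes as well. Whether the matches go with the rise was not tested. A TATA box stood 29 to 25 bases before the RefSeq start of Sdc4. In Sdc1 TATAA and its reverse complement overlapped within the last 11 bases, while 22.8% of all stretches held that motif. Sdc1 also held a CCAAT box (33.8% of all). The AP-1 motif (6.75% of all) and the SOX motif (9.42% of all) had no match in these 3 windows, which speaks only of these letters in these bases. The Sdc3 stretch was the richest in CpG of the 7 matched, with 32 CpG against a median of 6 over all stretches.

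Glypicans moved by smaller amounts. Gpc4, a glypican tied to WNT signalling and the most abundant of the family, measured 54.03, 56.95 and 56.95 FPKM in the libraries labelled Prkcz-/-, against 44.1, 45.9 and 44.4 FPKM in WT libraries. The groups did not overlap, with a log2 difference of 0.32 (SE 0.0367, limma adjusted p = 1.20e-04).

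Gpc6, whose human gene is mutated in a skeletal dysplasia (omodysplasia), had the largest difference of the glypicans tested. It measured 25.2, 26.0 and 25.7 FPKM in the libraries labelled Prkcz-/-, against 17.0, 20.4 and 17.6 FPKM in WT libraries. WT library 2 was the highest of its group and still below every library labelled Prkcz-/-. The log2 difference was 0.48 (SE 0.0664, limma adjusted p = 3.57e-04).

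Gpc1, a widely expressed glypican that binds FGFs, measured 28.9, 32.4 and 28.6 FPKM in the libraries labelled Prkcz-/-, against 24.2, 23.5 and 24.7 FPKM in WT libraries. Library 2 labelled Prkcz-/- was the highest, and the groups did not overlap. The log2 difference was 0.30 (SE 0.0542, limma adjusted p = 0.00139), above that of 75.7% of the genes tested. Ankmy1 shares 977 exon bases with Gpc1 on the opposite strand, and was listed at 0.0181 to 0.0745 FPKM in the libraries labelled Prkcz-/- and at 0.0185 to 0.0411 FPKM in WT.

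Gpc2, a glypican of the developing nervous system, measured 4.31, 4.42 and 5.32 FPKM in the libraries labelled Prkcz-/-, against 4.76, 5.21 and 4.52 FPKM in WT libraries. The groups overlapped. The log2 difference was -0.04, with a 95% interval of -0.26 to 0.18 (SE 0.0939, limma adjusted p = 0.705). Its merged exons share 2376 bases with the same-strand gene model Gm43720. Reads may be split between them, but Gm43720 had no row, so this could not be checked. The genes nearest to Gpc2 over the 6 libraries were Mybl1 (root mean square distance 0.0797 in log2), Phf8 (0.0853) and Pigb (0.0921).

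Gpc3, the glypican lost in a human overgrowth syndrome and a binder of Hedgehog proteins, was close to the floor. It was listed at 0.0603, 0.0266 and 0.110 FPKM in the libraries labelled Prkcz-/-, and at 0.246, 0.0302 and 0 FPKM in WT libraries. Corrected for depth, these values stood at 2, 1 and 4 times the smallest step in the libraries labelled Prkcz-/- and at 9, 1 and 0 times in WT, to within 0.074 of a whole number. If that step is 1 read, the highest library held 9 reads. The groups overlapped, and no difference was detectable at this depth.

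Gpc3 and Gpc4 are neighbours on the X chromosome (52272426 to 52613950 and 52053021 to 52165252, both on the minus strand, GENCODE M21 on GRCm38). A gap of 107.2 kb with 0 annotated genes separates them. Their levels were far apart all the same. The 250 bases before each RefSeq start are printed as above, to set the neighbour near the floor beside the abundant one. They are chrX:52613975-52614224 for Gpc3 and chrX:52164924-52165173 for Gpc4, both minus strand. The Gpc4 stretch lies inside the GENCODE span given above and the Gpc3 stretch outside its own, so these windows are not placed alike.
Gpc3: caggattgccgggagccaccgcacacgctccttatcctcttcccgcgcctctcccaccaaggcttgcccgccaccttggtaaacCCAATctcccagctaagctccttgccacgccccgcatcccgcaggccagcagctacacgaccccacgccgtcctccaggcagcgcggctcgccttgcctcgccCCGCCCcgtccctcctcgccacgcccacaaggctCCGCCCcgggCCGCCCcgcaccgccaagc
Gpc4: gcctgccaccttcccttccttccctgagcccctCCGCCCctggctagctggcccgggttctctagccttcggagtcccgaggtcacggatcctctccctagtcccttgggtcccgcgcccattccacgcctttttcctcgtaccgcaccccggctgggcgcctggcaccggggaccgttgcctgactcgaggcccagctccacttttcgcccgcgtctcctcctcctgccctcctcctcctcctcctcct

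Both stretches were rich in G and C, at 71.6% for Gpc3 and 68.4% for Gpc4, against a median of 52.4% over all stretches. Gpc3 had 25 CpG, 3 GC boxes and 1 CCAAT box, and Gpc4 had 18 CpG and 1 GC box. Gpc3, the lower of the pair in every library, held more of these matches than Gpc4. Gpc6 lies on chromosome 14 (116925315 to 117976544), 400.1 kb beyond the end of Gpc5.

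Shares within the glypican sum differed by at most a few percentage points. The 5 glypicans with a row summed to 113, 119.7 and 117 FPKM in the libraries labelled Prkcz-/-, against 90.3, 95.1 and 91.3 FPKM in WT libraries, a ratio of means of 1.26. Gpc4 held 48.1 ± 0.631% of the sum in the libraries labelled Prkcz-/- and 48.6 ± 0.280% in WT (SD, n = 3 each). Gpc1 held 25.7 ± 1.28% in the libraries labelled Prkcz-/- and 26.2 ± 1.26% in WT, and Gpc6 held 22.03 ± 0.348% in the libraries labelled Prkcz-/- and 19.9 ± 1.38% in WT. The share of Gpc2 was 4.03 ± 0.465% in the libraries labelled Prkcz-/- and 5.23 ± 0.270% in WT. Per library, syndecans summed to 2.43 to 2.53 times the glypicans in the libraries labelled Prkcz-/- and to 1.56 to 1.64 times in WT.

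The order of levels differed between the groups. In the libraries labelled Prkcz-/- it ran Sdc4, Sdc2, Gpc4, Sdc3, Sdc1, Gpc1, Gpc6, Gpc2 and Gpc3, and in that order Sdc3 and Sdc1 overlapped (43.5 to 47.1 and 41.3 to 44.9 FPKM). In WT libraries it ran Sdc4, Gpc4, Sdc2, Sdc1, Gpc1, Sdc3, Gpc6, Gpc2 and Gpc3, with Gpc1 and Sdc3 overlapping (23.5 to 24.7 and 21.6 to 23.7 FPKM). The ranges of the other neighbours in each order did not overlap. Sdc3 thus stood above Gpc1 in the libraries labelled Prkcz-/- and beside it in WT.

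**Figure D3:**
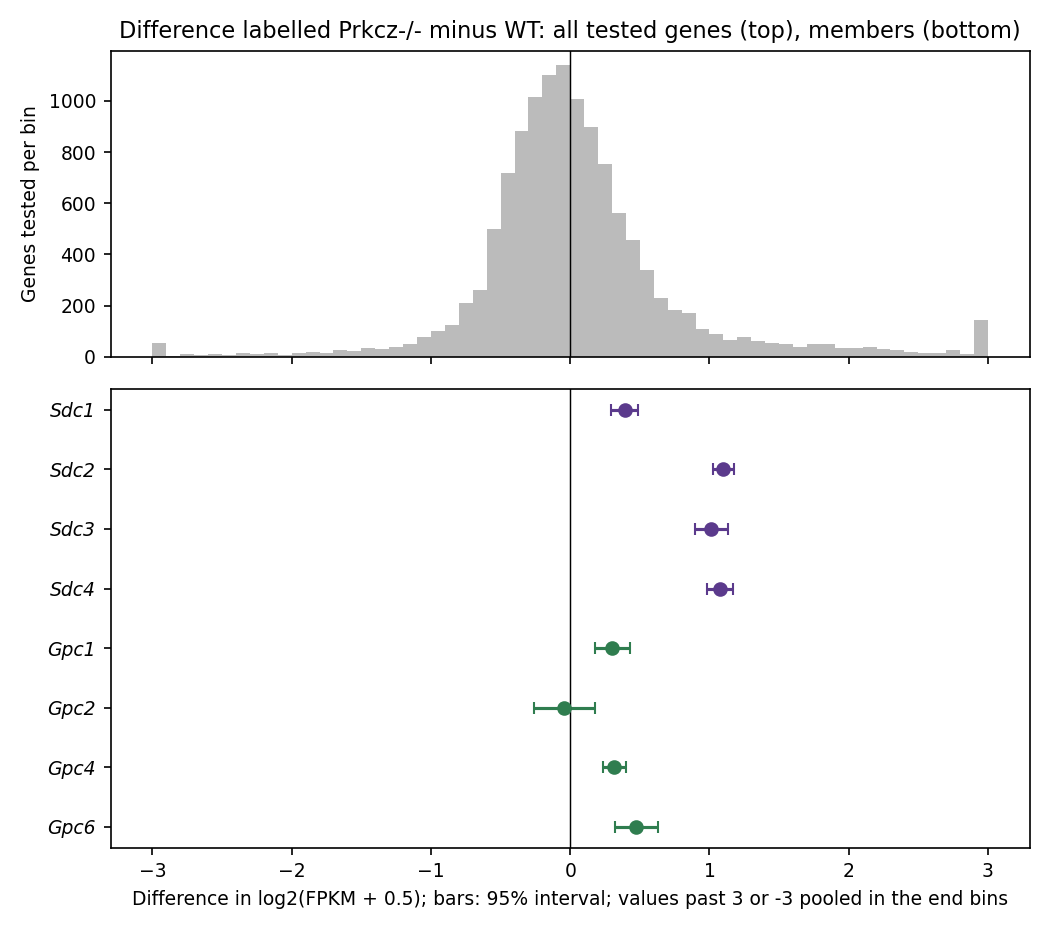
Top, number of tested genes in each bin of the difference in log2(FPKM + 0.5), labelled Prkcz-/- minus WT (12130 genes). Bottom, the same difference for each tested member with its 95% interval from limma: Sdc2, Sdc3 and Sdc4 lie at 1.01 to 1.10, the other rising members at 0.30 to 0.48, and the interval of Gpc2 spans 0.

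The enzymes that build and edit the chains moved in both directions. In 9 lists of genes around these proteoglycans, 84 genes were tested once each, of which 38 rose and 30 fell. That is 81.0% called, against 68.7% of all genes tested (31.5% higher and 37.2% lower). Of 11 tested genes of chain start and elongation 5 rose and 5 fell, with a median log2 difference of -0.01. The count that fell was 3 without library 1, 2 or 3 labelled Prkcz-/-, without WT library 2, with the replicate block, or with median-ratio or quantile scaling, and 2 on rescaling without short RNA genes, while 5 rose under each of these settings. Xylt1, which attaches the first xylose to the core protein, rose to 2.73 ± 0.00869 FPKM in the libraries labelled Prkcz-/-, against 0.0407 ± 0.00242 FPKM in WT (SD, n = 3 each). Xylt1 passed the 0.5 FPKM minimum only through the libraries labelled Prkcz-/-, so at its WT level it could be called only as higher. Pxylp1, the phosphatase that frees the linker for extension, averaged 14.6 FPKM in the libraries labelled Prkcz-/- and 7.11 FPKM in WT. Ext1, of the enzyme pair that lengthens the chain, averaged 124 FPKM in the libraries labelled Prkcz-/- and 74.3 FPKM in WT. B4galt7, which adds the first galactose of the linker, fell to 8.58 ± 0.448 FPKM in the libraries labelled Prkcz-/-, against 13.2 ± 0.551 FPKM in WT. The limma adjusted p was 4.61e-05 or less for these 4 genes.

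Sulfation genes likewise split, as did all genes tested (31.5% higher and 37.2% lower). Of 9 tested genes of heparan sulfate modification 5 rose and 3 fell, with a median log2 difference of 0.25. Hs6st1, a 6-O-sulfotransferase, rose to 43.8 ± 2.05 FPKM in the libraries labelled Prkcz-/-, against 11.5 ± 0.659 FPKM in WT (SD, n = 3 each; log2 difference 1.88, limma adjusted p = 6.55e-08). Hs3st3a1, a 3-O-sulfotransferase, averaged 2.49 FPKM in the libraries labelled Prkcz-/- and 0.648 FPKM in WT (limma adjusted p = 1.38e-05). The N-sulfotransferases moved apart: Ndst1 rose (34.6 FPKM labelled Prkcz-/-, 26.4 FPKM WT) and Ndst2 fell (8.73 FPKM labelled Prkcz-/-, 12.6 FPKM WT), with limma adjusted p of 1.53e-04 and 1.55e-04. In the list of sulfate supply 3 of 6 rose and 1 fell (median 0.15). There the 2 synthases of the sulfate donor also parted, as Papss1 fell (41.9 FPKM labelled Prkcz-/-, 68.3 FPKM WT) and Papss2 rose (10.97 FPKM labelled Prkcz-/-, 7.94 FPKM WT). The donor transporter Slc35b3 rose (14.7 FPKM labelled Prkcz-/-, 9.96 FPKM WT), as did Impad1, a Golgi phosphatase of the spent donor (37.9 FPKM labelled Prkcz-/-, 31.4 FPKM WT).

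Genes that edit or release the proteoglycans moved in both directions, as did all genes tested (31.5% higher and 37.2% lower, 68.7% in either direction). Of 15 tested 7 rose and 5 fell, with a median log2 difference of 0.07. Sulf2, an extracellular enzyme that removes 6-O-sulfates, rose to 47.5 ± 1.82 FPKM in the libraries labelled Prkcz-/-, against 12.7 ± 0.679 FPKM in WT (SD, n = 3 each; log2 difference 1.87, limma adjusted p = 4.89e-08). The metalloproteinases Mmp9 and Mmp2, which can act on syndecans, went opposite ways, with Mmp9 at 4.97 FPKM in the libraries labelled Prkcz-/- and 0.184 FPKM in WT, and Mmp2 at 8.10 FPKM in the libraries labelled Prkcz-/- and 19.2 FPKM in WT. Mmp9 passed the 0.5 FPKM minimum only through the libraries labelled Prkcz-/-, so at its WT level it could be called only as higher. Timp3, an inhibitor of metalloproteinases, had a log2 difference of 3.18 (limma adjusted p = 3.66e-09). In the list of GPI anchor attachment, the step that glypicans need, 2 of 9 rose and 2 fell (median 0.07): Gpaa1 and Pigs rose by 0.21 and 0.15 in log2, and Pigt and Pigu fell by 0.24 and 0.19. The call of Pigs was lost without library 1 labelled Prkcz-/- (limma adjusted p = 0.0659) or without WT library 3 (0.0581), and that of Pigu on rescaling without short RNA genes (0.069).

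Partners of the syndecan tails were split as well. Of 10 tested 4 rose and 5 fell, with a median log2 difference of -0.13. These counts lie near the shares over all genes tested (31.5% higher and 37.2% lower). Sdcbp (syntenin), whose PDZ domains bind the end of the tail, fell to 104 ± 1.99 FPKM in the libraries labelled Prkcz-/-, against 153 ± 1.01 FPKM in WT (SD, n = 3 each; log2 difference -0.57, limma adjusted p = 1.44e-06). Gipc1 (synectin), another PDZ protein, fell to 34.03 ± 0.232 FPKM in the libraries labelled Prkcz-/-, against 61.4 ± 1.91 FPKM in WT. Cask, a membrane scaffold, rose to 22.8 ± 1.11 FPKM in the libraries labelled Prkcz-/-, against 9.60 ± 0.640 FPKM in WT, and Prkca, the protein kinase C that Sdc4 binds, rose to 18.9 ± 0.968 FPKM in the libraries labelled Prkcz-/-, against 9.94 ± 0.319 FPKM in WT.

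Other carriers of heparan sulfate and the ligands of the chains were also mixed, as were all genes tested (31.5% higher and 37.2% lower). Of 8 other carriers tested 5 rose and 3 fell (median 0.36): Col18a1, a basement membrane collagen, averaged 17.9 FPKM in the libraries labelled Prkcz-/- and 3.25 FPKM in WT, and Fgfr2, an FGF receptor, averaged 7.86 FPKM in the libraries labelled Prkcz-/- and 4.37 FPKM in WT. Tgfbr3 (betaglycan) fell by 1.83 and Nrp1, a co-receptor of semaphorins and VEGF, fell by 1.62 in log2, with limma adjusted p of 8.83e-08 and 1.38e-08. Of 13 heparin-binding ligands tested 6 rose and 5 fell (median 0.15), and 3 fell with quantile scaling or on rescaling without short RNA genes. Fn1, the matrix ligand of syndecans, rose to 1355 ± 24.8 FPKM in the libraries labelled Prkcz-/-, against 752 ± 51.3 FPKM in WT (SD, n = 3 each), and Fgf7, a growth factor for epithelium, had a log2 difference of 1.79. The growth factor Hgf and the morphogen Bmp4 had log2 differences of -3.23 and -1.73. In the list of Hedgehog and WNT readouts 4 genes were tested, of which 2 rose and 1 fell (median 0.31). Gli2, a Hedgehog transcription factor, averaged 4.23 FPKM in the libraries labelled Prkcz-/- and 2.91 FPKM in WT, and Notum, which cuts a lipid from WNT proteins, averaged 1.02 FPKM in the libraries labelled Prkcz-/- and 0.0447 FPKM in WT. Notum lay close to the 0.5 FPKM minimum. It passed only through the libraries labelled Prkcz-/-, so at its WT level it could be called only as higher. Notum was not tested without library 1, 2 or 3 labelled Prkcz-/- or at a minimum of 1 FPKM, where 1 gene of the list rose. With no minimum 4 of the list rose. Smo, the Hedgehog signal transducer, averaged 32.4 FPKM in the libraries labelled Prkcz-/- and 37.7 FPKM in WT (limma adjusted p = 0.0302). That call was lost without library 1 or 3 labelled Prkcz-/-, without WT library 2, and under other settings, at adjusted p of up to 0.148. Ptch1, the Hedgehog receptor, did not pass, at 3.99 FPKM in the libraries labelled Prkcz-/- and 3.55 FPKM in WT (limma adjusted p = 0.16).

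**Figure D4:**
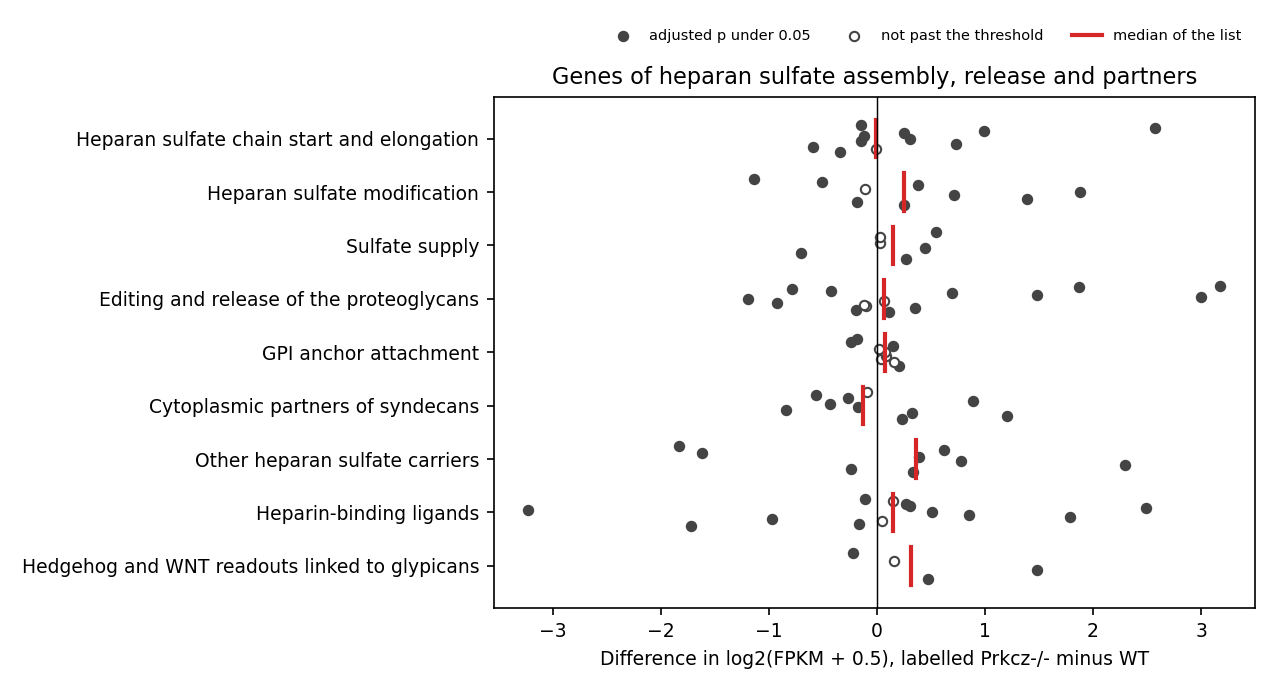
Difference in log2(FPKM + 0.5), labelled Prkcz-/- minus WT, for each tested gene of the 9 lists (filled points past an adjusted p of 0.05, open points not past it, red line the median of the list). Medians lie between -0.13 and 0.36, while Timp3 lies farthest to the right at 3.18 and Hgf farthest to the left at -3.23.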

How the data were processed

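RNA was measured in 6 libraries of mouse colon fibroblasts, 3 labelled Prkcz-/- and 3 labelled WT. Per the labels' protocols, polyadenylated RNA was made into directional libraries and read from 1 end. The authors deposited a table of FPKM values; per the submitters' processing notes the tools included STAR and DESeq2 and the build was mm10, with roles and versions not given in the sources used here, nor the counting program, annotation or strand setting.

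A minimum mean of 0.5 FPKM kept 12130 of 16874 genes, compared as log2(FPKM + 0.5) with limma 3.58.1 in R 4.3.3 (variance trend, two-sided, Benjamini-Hochberg adjustment over all genes, threshold 0.05). Fold changes on this scale understate those of low genes. The fit was also run on simulated data with independent normal noise and few changed genes, unlike the many called here. That run does not show how the fit does in this setting. Depth was estimated from steps of low values and GENCODE M21 exon lengths (FPKM hold no counts, so no interval from counting is given). The members and lists were chosen with earlier results of these data known. Beyond the members and Prkcz, named genes are up to 4 per list with the smallest p and the 3 nearest to the members with the highest and lowest difference. Marker genes, Sox2 and Ankmy1 are named as checks. Alternatives were other pseudocounts, filters, scalings, variance models, weights and thresholds, a replicate block, and leaving out libraries.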

Additional observations from a re-analysis of the deposited data

How the results depend on the processing

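The 7 called members kept their direction and side of the threshold in 126 of 126 recomputed values, which covers pseudocounts, filters, 3 scalings, variance models, weights, a stricter threshold, a replicate block and each library left out. Gpc2 was called under none of its 17 alternatives (-0.18 to 0.03) and changed sign in 3: 0.031 on rescaling without short RNA genes, 0.0082 without library 1 labelled Prkcz-/- and 0.0084 without WT library 2 (-0.13 to 0.0084 over the libraries left out). Ptch1, also not called, turned to -0.028 with quantile normalization. Among the 7 called members the highest adjusted p was 0.00913. Under a minimum log2 difference of 1, 3 members, 884 genes higher and 431 lower, and 11 list genes higher and 6 lower were called. The glypican and syndecan sums, at log2 ratios of 0.33 and 0.95, moved to 0.42 and 1.04 when rescaled without short RNA genes, and the syndecan sum to 1.04 with quantile normalization. With libraries left out, 7 members were higher and 0 lower each time, all genes ranged from 3372 to 3813 higher and 3968 to 4320 lower, list genes from 35 to 39 higher and 25 to 29 lower, and the sums from 0.31 to 0.36 (glypicans) and 0.94 to 0.97 (syndecans). Leaving out both replicate 1 libraries was added after seeing the data. Gpc3, tested only with no filter on low values, had a log2 difference of -0.05 (limma adjusted p = 0.831).

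Whether replicate numbers pair the libraries could not be told, as all correlations of deviations were close to 0. Same-numbered libraries had 0.0599, 0.0148 and 0.00827. Libraries 1 and 2 labelled Prkcz-/- correlated best with the WT library of the same number, and library 3 with WT library 2 (0.06155). With the replicate block 7 members were higher and 0 lower, among 3718 genes higher and 4375 lower, and 38 list genes higher and 27 lower. FPKM of genes near the floor, such as Gpc3, rest on a few reads at this depth.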
